A study of Mus musculus with 48 samples.

Results

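The 10 genes described here encode 8 inhibitory or related receptors of myeloid cells (Sirpa, Pirb, Lilrb4a, Cd72, Pilra, Cd300a, Siglece and Havcr2) and the 2 phosphatases Ptpn6 and Inpp5d. They were listed by name, for the part that the kinase Lyn plays in inhibitory signalling, with earlier results of these data known. By symbol and Ensembl identifier 9 of the 10 (7 receptors and both phosphatases) were found among the 49315 genes of the count table, and Lilrb4a was not analysed here. All 9 passed the filter on low counts, which kept 13986 genes. On GRCm38 the genes the results turn on most lie at chr4:43446462-43454628 (Cd72, minus strand, 7 merged exons), chr5:137821952-137836281 (Pilra, minus strand, 6 exons), chr7:43651070-43660161 (Siglece, minus strand, 7 exons) and chr1:87620312-87720507 (Inpp5d, plus strand, 29 exons).

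Many inhibitory receptors carry an immunoreceptor tyrosine-based inhibitory motif (ITIM) in their cytoplasmic tail. A Src-family kinase such as Lyn phosphorylates the tyrosine of this motif, which then docks phosphatases with SH2 domains. SHP-1, encoded by Ptpn6, removes phosphate from proteins, and SHIP-1, encoded by Inpp5d, removes a phosphate from the inositol lipid made by PI3 kinase, so that both can damp signals of Toll-like and Fc receptors in macrophages.

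The study profiled bone marrow-derived macrophages by polyA RNA sequencing. Marrow cells of LynKO mice (knockout of Lyn), LynAKO mice (knockout of its splice form LynA), LynBKO mice (knockout of the form LynB) and wild-type (WT) mice were grown for 7 days with M-CSF from a conditioned medium, so all groups are cultured cells and none is a resident macrophage. After a night without M-CSF the cells were given 2 ng/mL LPS, a ligand of TLR4, or 20 ng/mL R848, a ligand of TLR7, or medium alone (NT) for 2 h. By the labels, each of the 12 groups held 4 libraries, 1 from each of 4 mice (2 male and 2 female). The labels used here carry no ages. The labels name no Cre or transgene, and bulk libraries cannot tell fewer cells of a type from less RNA per cell.

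Libraries held 14974764 to 23321447 counts. Lyn averaged 67.6 ± 4.15 CPM (counts scaled to library size with TMM factors) in untreated LynKO cells, 118 ± 11.5 in LynAKO, 125 ± 6.38 in LynBKO and 177 ± 10.4 in WT cells (mean ± SD, n = 4 each), so reads at the locus remained in LynKO. The 10 macrophage markers were detected in every group, with sums of 23390 to 28790 CPM in LynKO, 30950 to 36720 CPM in LynAKO, 31110 to 38070 CPM in LynBKO and 35770 to 44920 CPM in WT libraries; Lyz2 was the main part and was lower in LynKO than in WT (-0.78 ± 0.08 on the log2 scale without ligand, adjusted p = 3.46e-06). Not all markers went this way: with libraries scaled by total counts alone, 3 of the 10 were higher and 2 lower in untreated LynKO cells. These had an adjusted p under 0.05 against WT by edgeR, and the median log2 fold change of the 10 was -0.03. Total counts shifted the median of all genes by 0.07 in this comparison, and the share of all genes called is not given for that scaling. The Lyz2 value is under TMM, so the marker counts are not on the same scale. The part of the lower sums in the LynKO results was not tested. Markers of B cells summed to 8.56 to 26.2 CPM, neutrophil markers to 12.4 to 74.9 CPM, and those of dendritic, T and NK, mast, erythroid and stromal cells to at most 23.4 CPM. The libraries of LynBKO NT mouse 4 and LynKO NT mouse 4, labelled female, held both Xist and Y-linked transcripts, and results that rest on them are given with and without them. The sex labels of LynBKO mice 2 and 3 differ between the NT libraries and those with ligand.

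The members spanned a wide range of transcript level. Divided by merged exon length, which allows a comparison between genes, untreated WT cells held 234 ± 4.71 CPM per kb of Sirpa and 108 ± 12 of Cd72 (mean ± SD, n = 4). Next came Cd300a with 83.5 ± 4.05, Pirb with 78.2 ± 2.31 and Ptpn6 with 72.8 ± 1.55 CPM per kb, where Cd300a and Pirb overlapped between libraries. Inpp5d stood at 44 ± 1.46, Havcr2 at 10.2 ± 1.52, Pilra at 3.45 ± 1.37 and Siglece at 1.57 ± 0.347 CPM per kb. Sirpa led this order in all 12 groups, while Pirb took the second place in every LPS and R848 group and Inpp5d dropped among the low members there. In WT cells with LPS, for example, Pirb reached 256 ± 21.3 CPM per kb and Inpp5d 11.9 ± 1.74, a level that overlapped that of Pilra at 11.2 ± 3.51.

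**Figure D1:**
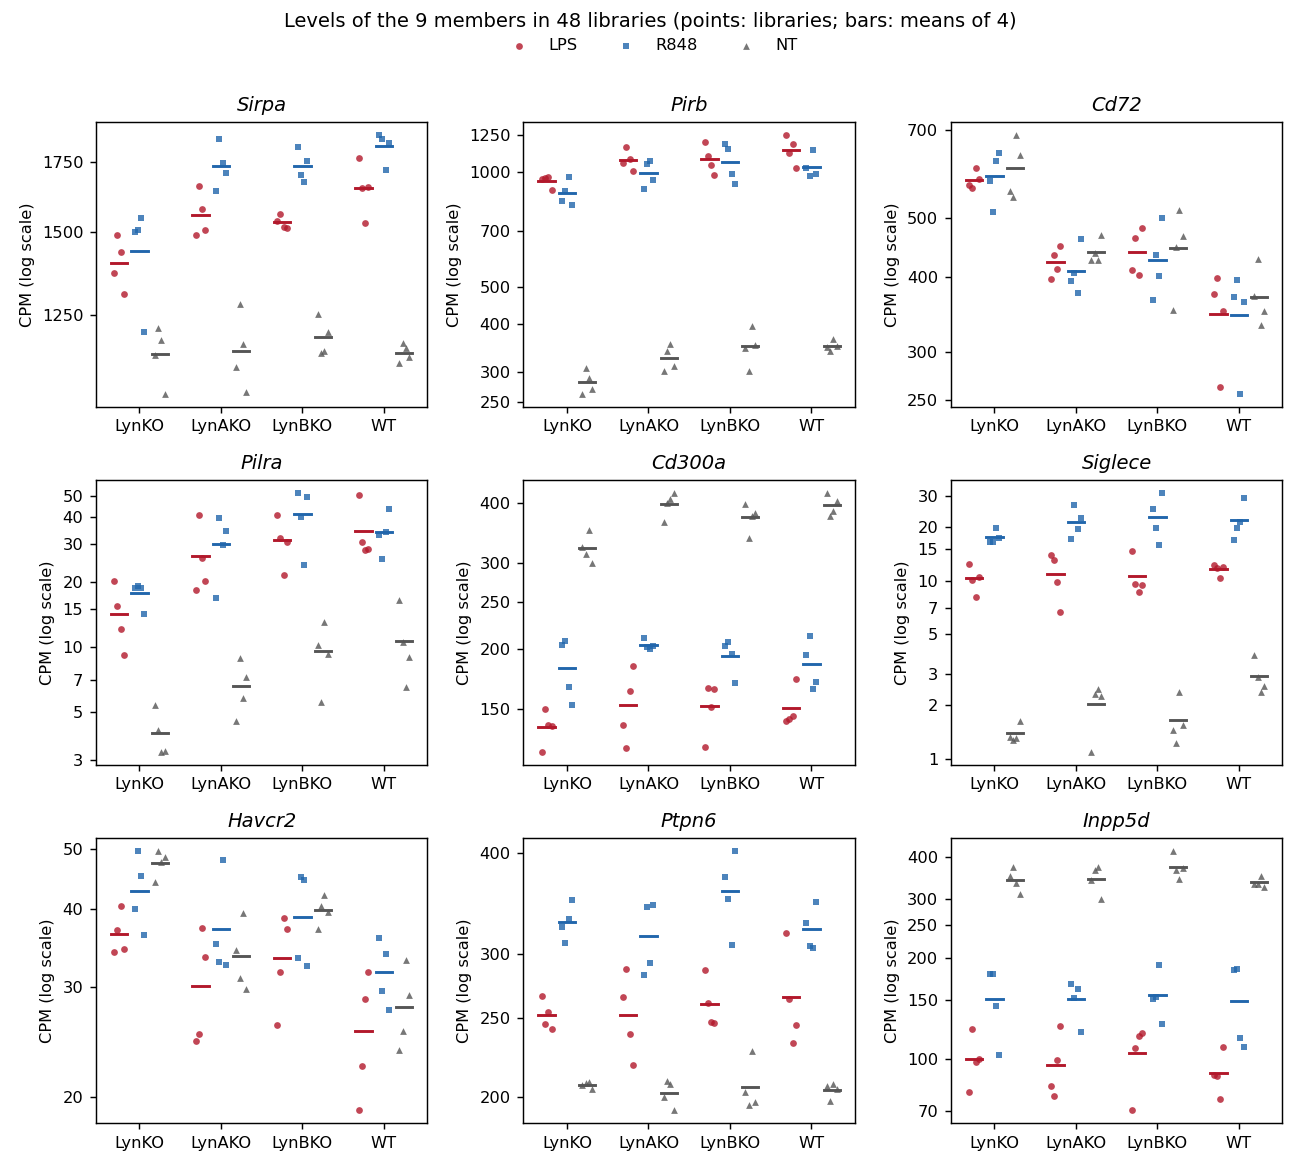
CPM (TMM-scaled, log axis) of each of the 9 members in all 48 libraries, by genotype and treatment. Points are libraries and bars are means of 4. Pirb, Pilra and Siglece are higher with either ligand than in NT cells of the same genotype, Cd300a and Inpp5d are lower, and the Cd72 points of LynKO cells lie above those of WT cells in every treatment.

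How did the ligands change the set? With LPS, 8 of the 9 members were called in LynKO cells and 7 of 9 in each of LynAKO, LynBKO and WT cells, by edgeR's quasi-likelihood test at an adjusted p under 0.05. All genes were called at 61.7%, 60.7%, 67.3% and 61.6% in the same comparisons, so these counts lie not far above the background. With R848, 7 of 9 were called in every genotype, where 55.3% (LynKO), 56.0% (LynAKO), 63.5% (LynBKO) and 56.7% (WT) of all genes were. In WT cells the median log2 fold change of the 9 members was 0.39 with LPS and 0.68 with R848, against -0.03 over all genes with either ligand. LPS and R848 were compared with the same NT libraries. In WT cells 5 members rose and 2 fell with LPS under TMM scaling, against 3 higher and 4 lower when libraries were scaled by total counts alone; with R848 the split was 5 and 2 under TMM, against 5 and 3 by total counts. Under TMM, 31.5% of all genes rose and 30.0% fell with LPS in WT cells, and 30.0% rose and 26.7% fell with R848. The shares of all genes by total counts are not given here. That scaling shifted their median in WT by -0.54 with LPS and -0.39 with R848.

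The receptors Siglece, Pilra and Pirb rose several-fold in every genotype. Siglece, a receptor for sialic acids on glycans, was low without ligand, with 12.2, 11.8, 10.4 and 12 CPM in the 4 WT libraries with LPS, 16.9, 19.7, 21.5 and 29.1 with R848 and 3.81, 2.88, 2.37 and 2.56 in NT cells. No library with a ligand reached down to an NT library. Its log2 fold change in WT was 2.01 ± 0.18 (SE) with LPS and 2.94 ± 0.18 with R848 (adjusted p = 2.13e-08 and 1.48e-10). Over the 4 genotypes it ran from 2.01 to 2.88 with LPS and from 2.94 to 3.78 with R848, a rise of 7.67-fold or more with R848.

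Pilra, the inhibitory member of a receptor pair that binds sialylated O-glycoproteins, had 50.8, 30.6, 28.2 and 28.6 CPM in WT cells with LPS, 33.2, 25.7, 34.2 and 43.8 with R848 and 16.5, 10.6, 6.53 and 9.02 in NT cells. The ligand groups did not overlap the NT group, although the NT libraries themselves spread widely. Its log2 fold change ran from 1.71 to 2.00 with LPS and from 1.72 to 2.19 with R848 over the genotypes, with adjusted p of 1.08e-05 or less. Pirb, which binds MHC class I and is a known substrate of Lyn in mouse myeloid cells, had 1249, 1118, 1180.0 and 1025 CPM with LPS, 1021, 978, 1140.5 and 988 with R848 and 347, 339, 364 and 349 in NT cells. These groups stood far apart, and the rise was much the same size in each genotype, from 1.63 to 1.74 with LPS and from 1.59 to 1.63 with R848 on the log2 scale. Reads of Pirb and Pilra can be shared with their close activating paralogs, so part of each count is uncertain.

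Sirpa, the receptor for the CD47 signal that restrains phagocytosis, was the most abundant member and moved less. It had 1765, 1654, 1530.5 and 1656 CPM in WT cells with LPS, 1857, 1839, 1720.1 and 1826 with R848 and 1123, 1175, 1162 and 1139 in NT cells, with no overlap between ligand and NT libraries, although R848 and NT libraries overlapped in LynKO. The log2 fold change ran from 0.28 to 0.53 with LPS and from 0.31 to 0.68 with R848. Under TMM scaling it was called in all 4 genotypes. Scaled by total counts alone it was -0.16 in LynKO, -0.06 in LynAKO, -0.13 in LynBKO (called lower, adjusted p = 0.0148) and 0.02 in WT with LPS. With R848 the total-count value was 0.01 in LynKO and not called (adjusted p = 0.898). It was 0.25 in LynAKO, 0.19 in LynBKO and 0.32 in WT, where it was called. Under that scaling the median of all genes itself shifted by -0.54 to -0.48 with LPS and by -0.40 to -0.32 with R848. Relative to the shifted median, Sirpa stood 0.32 higher in LynKO and 0.56 higher in WT with LPS, so what follows is change relative to the typical gene.

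Cd300a, which recognises phosphatidylserine and phosphatidylethanolamine on dying cells, fell in all 4 genotypes. WT libraries held 142, 144, 145 and 173 CPM with LPS, 194, 213, 165 and 171 with R848 and 418, 376, 384 and 404 in NT cells. The NT libraries were all above those with a ligand. The log2 fold change ran from -1.38 to -1.24 with LPS and from -1.06 to -0.84 with R848 (adjusted p at most 2.55e-06).

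Cd72 and Havcr2 showed little response under TMM scaling. Cd72, a C-type lectin-like receptor best known on B cells, where semaphorin 4D is its ligand, had 375, 398, 263 and 350.4 CPM in WT cells with LPS, 370.1, 395, 256 and 363 with R848 and 372, 427, 332 and 351 in NT cells. All 3 groups overlapped, and no genotype was called with either ligand (log2 fold changes from -0.08 to -0.02 with LPS and from -0.09 to -0.06 with R848). Havcr2 encodes TIM-3, whose tail bears tyrosine motifs without a canonical ITIM, and it fell with LPS in LynKO cells, by 0.39 ± 0.09 on the log2 scale (SE; adjusted p = 0.00196). In the other genotypes its values with LPS ran from -0.25 to -0.12 and were not called, and the test of the difference between the LPS responses of LynKO and WT gave -0.25 ± 0.20 (adjusted p = 0.861). By total counts alone Cd72 had values from -0.60 to -0.52 with LPS, all called, which is within 0.06 of the median gene. Havcr2 was likewise called lower with LPS in every genotype under that scaling, at -0.83 in LynKO, -0.65 in LynAKO, -0.74 in LynBKO and -0.63 in WT (adjusted p at most 0.00159), which relative to the median gene is -0.35 in LynKO and -0.09 in WT. With R848 it was called lower by total counts in LynKO (-0.47) and LynBKO (-0.39).

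The 2 phosphatases went opposite ways. Inpp5d held 89.5, 88.6, 76 and 108 CPM in WT cells with LPS, 184, 186, 116 and 108 with R848 and 331, 332, 351 and 326 in NT cells. No library with a ligand came near the NT libraries. Its log2 fold change ran from -1.87 to -1.77 with LPS and from -1.26 to -1.15 with R848 over the genotypes, which with LPS left 0.273 to 0.292 of the NT level. Ptpn6 had 319, 264, 233 and 245 CPM in WT cells with LPS, 328, 307, 305 and 348 with R848 and 206, 198, 208 and 205 in NT cells, again without overlap. It rose by 0.28 to 0.39 with LPS and by 0.65 to 0.80 with R848 on the log2 scale under TMM; by total counts the R848 values stayed positive, at 0.31 to 0.44, but those with LPS turned to -0.17 to -0.13, which is 0.31 to 0.41 above the median gene.

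**Figure D2:**
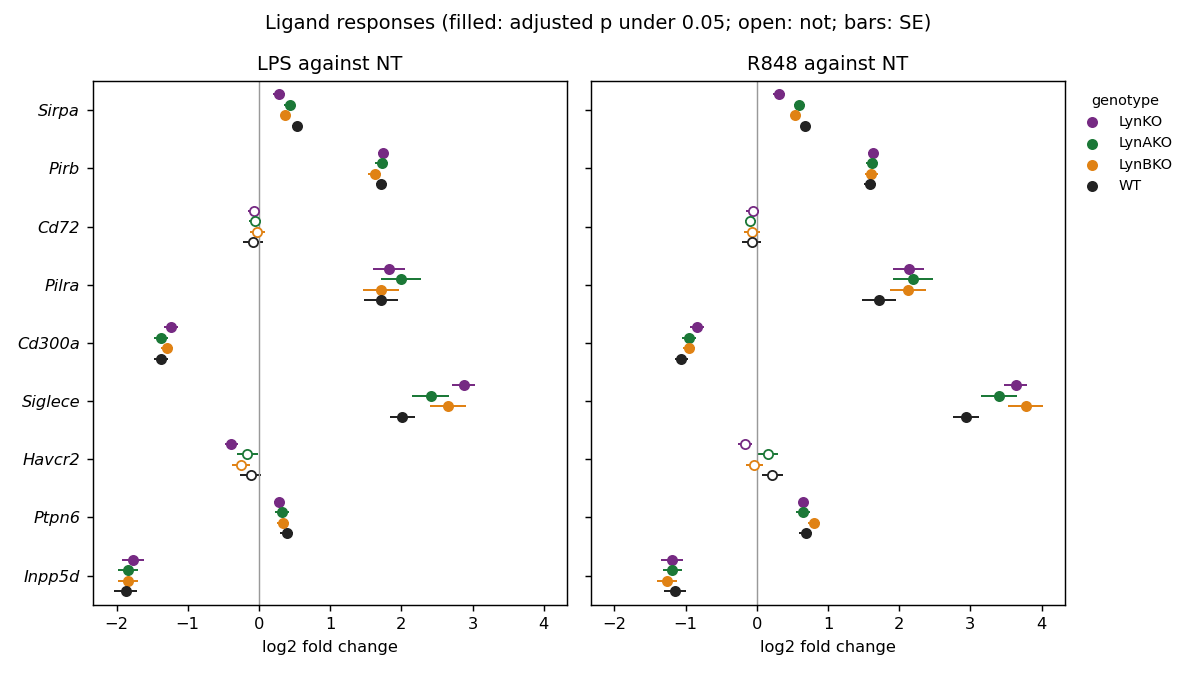
Log2 fold changes (TMM scaling) of the 9 members with LPS and with R848 against NT cells, by genotype. Points are edgeR estimates, bars are SE, and filled points have an adjusted p under 0.05. Siglece, Pilra and Pirb lie furthest to the right and Inpp5d furthest to the left. The positive LPS values of Ptpn6, and those of Sirpa outside WT, turn negative when libraries are scaled by total counts alone.

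All 57 member calls against NT held when any single mouse number was left out, and no such call was lost without LynBKO NT 4 and LynKO NT 4. By the sex labels, a LynBKO number need not be the same mouse across treatments. LPS and R848 also differed from each other. Members called in this comparison numbered 4 in LynKO, 4 in LynAKO, 5 in LynBKO and 4 in WT, all lower with LPS, where 15.9%, 17.6%, 26.5% and 21.0% of all genes were called, and 6.13%, 7.92%, 12.3% and 10.0% were lower with LPS. Siglece, Cd300a, Ptpn6 and Inpp5d were called in every genotype. Siglece differed most, from -1.12 to -0.76 on the log2 scale, followed by Inpp5d from -0.73 to -0.58, Cd300a from -0.43 to -0.31 and Ptpn6 from -0.46 to -0.30.

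Sirpa was lower with LPS than with R848 in LynBKO cells, by 0.18 ± 0.05 (adjusted p = 0.0157). With the mouse as a block it was called in LynAKO cells too (-0.17 ± 0.08 without the block, adjusted p = 0.012 with it), as was Havcr2 in LynKO (adjusted p = 0.0466) and LynAKO (0.0172). Of the 17 calls, 7 were lost without some mouse: Cd300a without LynKO 1 or 2, LynAKO 1 or 2, or WT 1, 2 or 3 (adjusted p up to 0.223), Inpp5d without LynKO 1 or 3 (up to 0.198), Ptpn6 without LynAKO 2, 3 or 4 or WT 2, 3 or 4 (up to 0.173) and Sirpa without LynBKO 1, 2 or 4 (up to 0.0714). The Siglece calls held throughout.

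Because several members moved together, the sequences before their starts are shown for the strongest risers (Siglece and Pilra), for the members that fell together (Cd300a and Inpp5d) and for Cd72, which differed by genotype. They are the 250 bases upstream of the RefSeq start on GRCm38.p6, written 5′ to 3′ on the strand of the gene, with motif matches in capitals. Siglece lies at chr7:43660162-43660411, minus strand; Pilra at chr5:137836279-137836528, minus strand; Cd300a at chr11:114889791-114890040, plus strand; Inpp5d at chr1:87620062-87620311, plus strand; and Cd72 at chr4:43454627-43454876, minus strand.
Siglece: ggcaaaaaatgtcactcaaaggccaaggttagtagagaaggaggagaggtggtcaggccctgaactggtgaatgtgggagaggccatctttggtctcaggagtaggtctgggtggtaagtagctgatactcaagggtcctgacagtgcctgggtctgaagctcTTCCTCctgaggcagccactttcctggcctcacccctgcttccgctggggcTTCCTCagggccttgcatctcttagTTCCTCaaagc
Pilra: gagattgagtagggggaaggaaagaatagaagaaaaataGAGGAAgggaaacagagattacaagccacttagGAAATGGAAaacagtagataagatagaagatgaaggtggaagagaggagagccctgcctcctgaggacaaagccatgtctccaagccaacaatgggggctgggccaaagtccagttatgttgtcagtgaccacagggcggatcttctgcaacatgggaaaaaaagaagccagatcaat
Cd300a: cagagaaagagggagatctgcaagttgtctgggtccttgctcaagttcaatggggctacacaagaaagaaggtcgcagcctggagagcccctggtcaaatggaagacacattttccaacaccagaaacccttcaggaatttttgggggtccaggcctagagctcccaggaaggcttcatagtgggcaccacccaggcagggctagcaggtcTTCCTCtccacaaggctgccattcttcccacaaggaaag
Inpp5d: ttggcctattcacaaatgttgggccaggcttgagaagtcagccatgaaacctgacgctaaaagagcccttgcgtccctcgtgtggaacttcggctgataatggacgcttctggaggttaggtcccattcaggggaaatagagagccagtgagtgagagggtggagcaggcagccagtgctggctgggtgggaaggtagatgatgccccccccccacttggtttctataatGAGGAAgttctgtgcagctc
Cd72: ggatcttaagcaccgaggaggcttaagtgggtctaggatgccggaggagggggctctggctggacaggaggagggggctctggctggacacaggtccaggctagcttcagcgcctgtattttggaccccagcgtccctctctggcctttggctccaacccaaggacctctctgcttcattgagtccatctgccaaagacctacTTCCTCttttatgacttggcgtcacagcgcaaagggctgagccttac

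The capitals mark the PU.1 core GAGGAA (or TTCCTC on the other strand) and, in Pilra, the match GAAATGGAA to the interferon-stimulated response element letters GAAANNGAA. PU.1 is the ETS factor that marks many promoters of myeloid cells. Over windows of 300 bases (250 before the start and 50 after), the PU.1 core was found in 7 of the 8 member promoters of the table, against 28.3% of all 32851 promoters, with Ptpn6 the one without it. The string GGGANNNCC, searched for kappa-B, was found in 2 of 8 (Pirb and Ptpn6, against 18.6% of all). Kappa-B sites of other lengths or letters were not searched. The response element letters were found in 1 of 8 (Pilra, 8.56% of all) and the AP-1 letters TGANTCA in 1 of 8 (Havcr2, 7.81%). Both strands were searched, no matches overlapped each other, and a match is a string of letters and not a bound site.

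The genotype comparison sets the members in LynKO cells beside those in WT cells. The members were chosen with earlier results of these data known, so their counts are not an independent test against all genes. In untreated cells 6 of the 9 members differed between LynKO and WT (2 higher, 4 lower), where 9.90% of all genes were called. With LPS 5 of 9 differed (2 higher, 3 lower; 8.49% of all genes) and with R848 3 of 9 (1 higher, 2 lower; 5.93% of all genes). Higher in LynKO were 5.43%, 4.43% and 3.19% of all genes (NT, LPS and R848), and lower were 4.47%, 4.06% and 2.74%. The median log2 fold change of the members was 0.01, -0.11 and -0.02 in NT, LPS and R848 cells, against 0.01, 0.02 and 0.01 over all genes, so the members did not move one way. By total counts the split was 2 higher and 4 lower without ligand, and 2 higher and 1 lower with LPS and with R848. That scaling shifted the median of all genes by 0.07, 0.12 and 0.11 (NT, LPS and R848). The share of all genes called by total counts is not given here, so these splits have no background beside them.

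Cd72 was the member higher in LynKO cells under all 3 treatments. LynKO cells held 555, 542, 688 and 638 CPM without ligand, against 372, 427, 332 and 351 in WT cells. With LPS they held 569, 562, 606 and 582 CPM, against 375, 398, 263 and 350.4 in WT, and with R848 578, 512, 621 and 641 CPM, against 370.1, 395, 256 and 363 in WT. Every LynKO library lay above every WT library of its treatment. The log2 fold change was 0.72 ± 0.10, 0.76 ± 0.10 and 0.76 ± 0.12 (SE; NT, LPS and R848; adjusted p = 0.000122, 8.23e-05 and 0.0015), and these calls held without any single mouse. The 8 B cell markers, measured because Cd72 is a B cell gene, summed to 12.8 to 15.8 CPM in untreated LynKO libraries and 18.7 to 26.2 CPM in WT libraries. With LPS the sums were 9.93 to 13.8 CPM in LynKO and 14.8 to 18.1 CPM in WT, and with R848 8.56 to 12.6 CPM in LynKO and 11.9 to 17.1 CPM in WT. Tesk1, whose exons overlap 1423 bases of Cd72 on the other strand, had 51.9 CPM in LynKO and 53.8 CPM in WT cells without ligand and was not called (adjusted p = 0.812).

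Havcr2 was likewise higher in LynKO. Untreated LynKO libraries held 44.2, 49.6, 47.6 and 48.6 CPM, against 23.8, 25.5, 33.1 and 29.1 in WT. With LPS the values were 34.2, 37, 40.4 and 34.5 CPM in LynKO and 19.1, 22.4, 28.8 and 31.7 in WT, and with R848 40.1, 49.6, 45.2 and 36.3 CPM in LynKO and 36, 29.6, 33.9 and 27.6 in WT. The groups did not overlap in any treatment. The log2 fold change was 0.78 ± 0.10 in NT and 0.54 ± 0.16 in LPS cells (adjusted p = 2.48e-05 and 0.0384). In R848 cells it was 0.43 ± 0.14 and was not called (adjusted p = 0.086), though it was with the replicate number as a block (0.0144). The LPS call was lost without LynKO 2, 3 or 4 or WT 1 or 2 (adjusted p 0.0213 to 0.134 over the mice left out).

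Pilra was lower in LynKO under all 3 treatments. LynKO cells held 5.37, 4.1, 3.26 and 3.28 CPM without ligand, against 16.5, 10.6, 6.53 and 9.02 in WT. With LPS they held 20.3, 15.5, 12.1 and 9.16 CPM, against 50.8, 30.6, 28.2 and 28.6 in WT, and with R848 18.8, 19.2, 18.9 and 14.3 CPM, against 33.2, 25.7, 34.2 and 43.8 in WT. No LynKO library reached the lowest WT library of its treatment. Its log2 fold change was -1.39 ± 0.28, -1.25 ± 0.25 and -0.94 ± 0.24 (NT, LPS and R848; adjusted p = 0.00239, 0.00442 and 0.0249), and the R848 call was lost without LynKO 1 or 4 or WT 3 or 4 (adjusted p 0.02 to 0.0818).

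Siglece was lower in untreated LynKO cells, with 1.33, 1.27, 1.32 and 1.64 CPM in LynKO and 3.81, 2.88, 2.37 and 2.56 in WT. The groups did not overlap, but these are low levels, and the call (-1.04 ± 0.27, adjusted p = 0.0157) was lost without WT 1 (adjusted p = 0.0559). With LPS the libraries of both genotypes overlapped, with 12.5, 10.1, 8.07 and 10.4 CPM in LynKO and 12.2, 11.8, 10.4 and 12 in WT (-0.15 ± 0.19, adjusted p = 0.701). With R848 the value was -0.31 ± 0.19 (adjusted p = 0.369).

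Markers of neutrophils, cells that also carry receptors of the PILR, PIR and Siglec families, had a lower sum in LynKO libraries than in WT libraries under each treatment. The 10 summed to 12.4 to 19.0 CPM in LynKO and 24.8 to 51.5 CPM in WT libraries without ligand. With LPS the sums were 18.3 to 26.4 CPM in LynKO and 34.1 to 74.9 CPM in WT, and with R848 17.8 to 26.6 CPM in LynKO and 36.9 to 67.2 CPM in WT. Of the 6 that passed the filter, only Mmp8 was called, lower in each treatment. Mmp8 had 11.4 CPM in LynKO and 34.0 CPM in WT cells without ligand. It was the main part of the sums there, so those sums mostly show this gene. The other 5 were not called in any treatment. The median log2 fold change of the 6 was -0.72, -0.895 and -1.12 (NT, LPS and R848). The defining neutrophil marker Ly6g was at or near 0 in both genotypes (0.0119 CPM in LynKO and 0 in WT without ligand), and Mpo and Elane were at 0.0399 CPM or less without ligand. The part of such cells in the values of Pilra, Siglece and Pirb was not tested.

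Pirb and Cd300a were slightly lower in LynKO. Pirb had 262, 306, 289 and 270.4 CPM in untreated LynKO cells and 347, 339, 364 and 349 in WT, and with LPS 956, 963, 970.2 and 895 CPM in LynKO and 1249, 1118, 1180.0 and 1025 in WT, without overlap. The log2 fold change was -0.30 ± 0.07 in NT and -0.25 ± 0.07 in LPS cells (adjusted p = 0.0115 and 0.0349), and -0.23 ± 0.09 in R848 cells, where it was not called (0.14). The NT call was lost without the libraries LynBKO NT 4 and LynKO NT 4 (adjusted p = 0.0512), and the LPS call without any one mouse but WT 4 (adjusted p 0.0213 to 0.0947) and by total counts (-0.15, adjusted p = 0.123). Cd300a had 324, 314, 352 and 301 CPM in untreated LynKO cells and 418, 376, 384 and 404 in WT, a log2 fold change of -0.28 ± 0.07 (adjusted p = 0.00799), lost with all 48 libraries in 1 model (adjusted p = 0.0575). With either ligand the Cd300a libraries of both genotypes overlapped.

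Sirpa was lower in LynKO where a ligand was given. LynKO cells held 1369.5, 1491, 1437 and 1309 CPM with LPS, against 1765, 1654, 1530.5 and 1656 in WT, and 1501, 1506, 1546 and 1204 CPM with R848, against 1857, 1839, 1720.1 and 1826 in WT. The groups did not overlap with either ligand, while untreated LynKO (1143, 1213, 1183 and 1050.4 CPM) and WT (1123, 1175, 1162 and 1139 CPM) libraries did. The log2 fold change was -0.22 ± 0.06 with LPS and -0.33 ± 0.08 with R848 (adjusted p = 0.0362 and 0.0159). The LPS call was lost without LynKO 1, 3 or 4 or WT 1, 2 or 4 (adjusted p 0.0259 to 0.0979), and by total counts the values were -0.11 and -0.23, with adjusted p of 0.24 and 0.0555. With no filter on low counts the LPS call was lost as well (adjusted p = 0.106). Total counts shifted the median of all genes by 0.12 with LPS and 0.11 with R848 in this comparison.

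Neither phosphatase differed detectably between LynKO and WT. Ptpn6 had 207, 208, 208 and 205 CPM in untreated LynKO cells and 206, 198, 208 and 205 in WT, with a log2 fold change of 0.03 ± 0.06 and a 95% interval of -0.08 to 0.14. Inpp5d had 349.7, 372, 333 and 309 CPM in LynKO and 331, 332, 351 and 326 in WT, with 0.04 ± 0.07 and an interval of -0.10 to 0.18. With ligand the intervals were wider: -0.23 to 0.13 (LPS) and -0.14 to 0.20 (R848) for Ptpn6, and -0.16 to 0.49 (LPS) and -0.35 to 0.40 (R848) for Inpp5d.

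**Figure D3:**
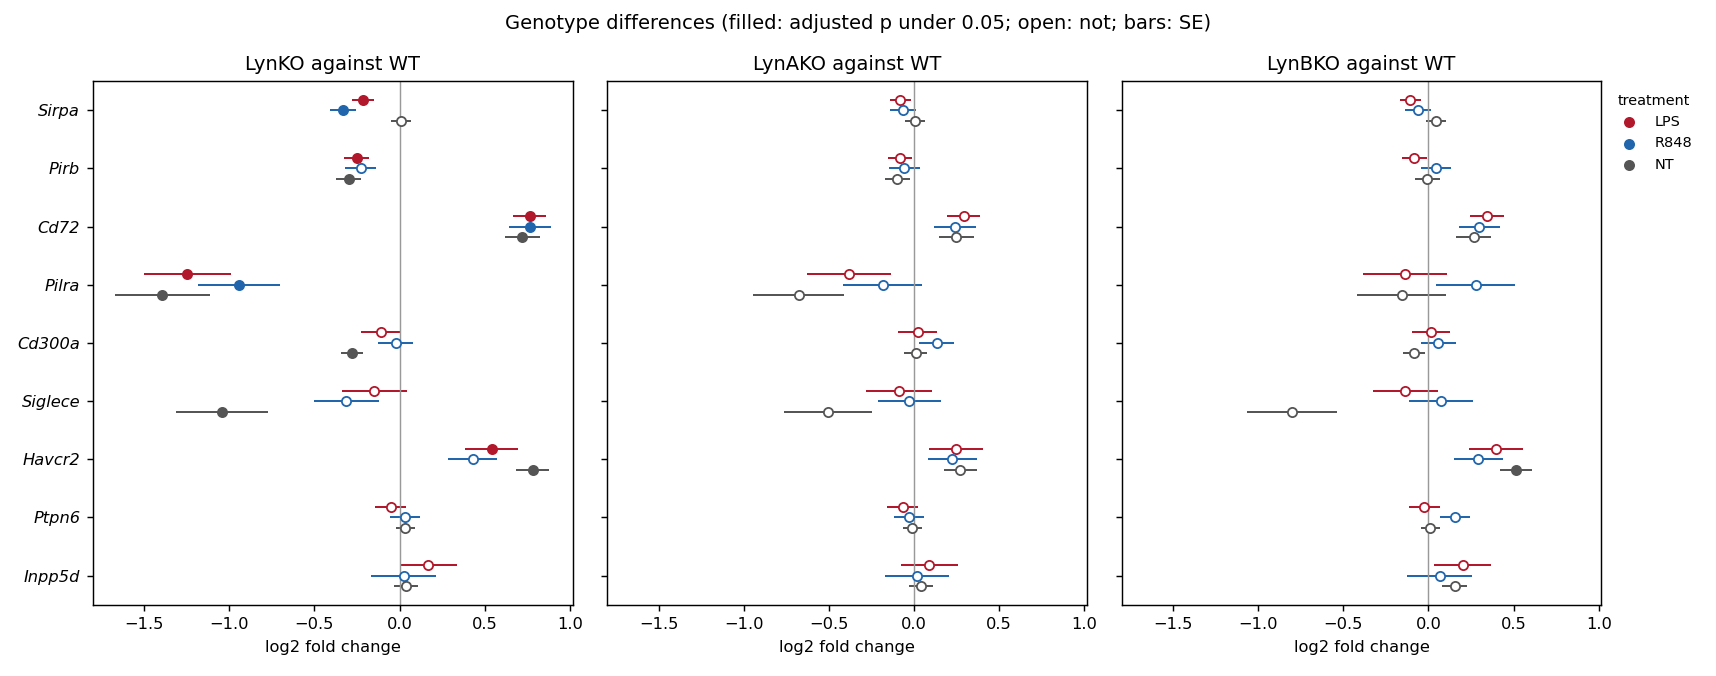
Log2 fold changes of the 9 members in LynKO, LynAKO and LynBKO cells against WT cells, by treatment. Points are edgeR estimates, bars are SE, and filled points have an adjusted p under 0.05. In the LynKO panel Cd72 and Havcr2 lie to the right and Pilra to the left, while in the LynAKO and LynBKO panels the only filled point is Havcr2 of untreated LynBKO cells.

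The knockouts of single Lyn forms, set against the same WT libraries, gave far fewer calls. In LynAKO 0 of 9 members were called under any treatment by edgeR after the filter on low counts. Of all genes, 0.0286% (NT), 0.0215% (LPS) and 0.00715% (R848) were called. At an unadjusted p under 0.05 there were 3, 1 and 0 members, and DESeq2 called 0. With no filter on low counts edgeR called Pilra lower in untreated LynAKO cells (-0.67, adjusted p = 0.00219). After the filter the log2 fold change was almost the same (-0.68), but the adjusted p was 0.974 or above. The share of all genes called without the filter is not given here for any comparison, so such calls have no background beside them. In LynBKO 1 of 9 was called in NT cells (0.0644% of all genes), and 0 with LPS (0.0358%) or R848 (0%), where 2 and 1 had an unadjusted p under 0.05 and DESeq2 called 0. The member was Havcr2, with 37.2, 40.6, 42.1 and 39.6 CPM in LynBKO and 23.8, 25.5, 33.1 and 29.1 in WT cells and no overlap. Its log2 fold change was 0.51 ± 0.10 (adjusted p = 0.0454); the call was lost without the libraries LynBKO NT 4 and LynKO NT 4 (adjusted p = 0.2), by limma (0.0621), in 1 model of all 48 libraries (0.188) and without LynBKO 1, 2, 3 or 4 or WT 1, 2 or 4 (adjusted p 0.00538 to 0.178).

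Cd72 shows how these knockouts compare with LynKO. It had 426, 438, 426 and 468 CPM in untreated LynAKO and 352, 448, 516 and 467 in LynBKO cells, log2 fold changes against WT of 0.25 ± 0.10 and 0.27 ± 0.10 (adjusted p = 0.994 and 0.31). No library of either reached the lowest untreated LynKO library. With LPS the LynBKO libraries (410.5, 464, 402 and 481 CPM) all lay above the WT libraries, but the value was not called (0.34 ± 0.10, adjusted p = 0.536). With no filter on low counts edgeR called Cd72 higher in LynBKO in NT cells (0.26, adjusted p = 0.0189) and with LPS (0.35, adjusted p = 0.0165). After the filter Cd72 had an unadjusted p under 0.05 in 2 of 3 treatments in LynAKO and in all 3 in LynBKO. Between LynAKO and LynBKO 0 of 9 members were called under any treatment by edgeR, beside 0% of all genes, and 1 member with NT and 0 with LPS or R848 had an unadjusted p under 0.05. DESeq2 called 0 in each. The 27 log2 fold changes of LynAKO against LynBKO ran from -0.52 to 0.30, and their 95% intervals were widest for Pilra (-1.05 to 0.24 over the 3 treatments) and Siglece (-0.47 to 0.82) and narrowest for Sirpa (-0.15 to 0.15). For the other 6 members they lay between -0.46 and 0.32.

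Set directly against the single-form knockouts, LynKO differed in a few members. These 6 comparisons were added after the other values had been seen. Against LynAKO 3 of 9 members were called in NT cells (3.39% of all genes), 1 with LPS (1.09%) and 1 with R848 (0.858%). Cd72 was higher in LynKO each time, by 0.47 ± 0.10, 0.47 ± 0.10 and 0.52 ± 0.12 on the log2 scale (adjusted p = 0.0121, 0.0254 and 0.0472; NT, LPS and R848). In NT cells Havcr2 was also higher (0.51 ± 0.10, adjusted p = 0.00469) and Cd300a lower (-0.29 ± 0.07, 0.0149). Without LynKO NT 4 and LynBKO NT 4 the NT calls of Cd72 (adjusted p = 0.0582) and Cd300a (0.0823) were lost, that of Cd72 also without mouse LynKO 3 (0.0521) and that of Cd300a without LynKO 2 or 4 (up to 0.0595). The Cd72 call was lost without LynAKO 1, 2 or 3 or LynKO 2 or 3 with LPS (adjusted p up to 0.0788), and without any one of the 8 mice with R848 (adjusted p 0.0529 to 0.151).

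Against LynBKO 3 of 9 were called in NT cells (3.57% of all genes), 1 with LPS (0.629%) and 1 with R848 (1.72%). Pilra was lower in LynKO each time, by 1.24 ± 0.28, 1.11 ± 0.25 and 1.22 ± 0.24 (adjusted p = 0.0165, 0.0482 and 0.0165; NT, LPS and R848). In NT cells Cd72 was higher (0.46 ± 0.10, 0.0165) and Pirb lower (-0.29 ± 0.07, 0.03). None of the 3 NT calls held without LynBKO NT 4 and LynKO NT 4 (adjusted p = 0.137 for Pilra, 0.118 for Cd72 and 0.196 for Pirb). Single mice also ended these calls: LynBKO 1 or 3 or LynKO 3 or 4 for Pilra in NT (up to 0.0702), LynBKO 1, 2 or 4 or LynKO 2, 3 or 4 with LPS (up to 0.161) and LynBKO 1 or 4 or LynKO 4 with R848 (up to 0.0913); LynBKO 1 or LynKO 3 or 4 for Cd72 (up to 0.0705); and LynBKO 1, 3 or 4 or LynKO 1, 3 or 4 for Pirb (up to 0.128).

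In R848 cells same-numbered libraries of LynKO and of each single-form knockout deviated together (every r over 0.1). These are different mice and the labels give no pairing. By the labels, same-numbered R848 libraries have the same sex in every genotype, and what else the numbers share was not tested. With the number as a block, Sirpa was also called against LynAKO (-0.27 ± 0.08 without the block, adjusted p = 0.0451 with it), and Sirpa (0.0313), Pirb (0.0389) and Cd72 (0.0127) against LynBKO.

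Did any knockout change the size of a ligand response? The difference between the response of a knockout and that of WT was not called for any of the 9 members in any of 6 tests by edgeR after the filter on low counts. Over all genes 0.100% and 0.193% were called for the LPS and R848 responses of LynKO, and 0% for each of the LynAKO and LynBKO responses. At an unadjusted p under 0.05 there were 2 members (Sirpa and Siglece) for each of the LynKO responses, 1 (Siglece) for the R848 response of LynBKO and 0 for the other 3. Siglece had the largest values. In LynKO they were 0.88 ± 0.34 (95% interval 0.21 to 1.55) for LPS and 0.74 ± 0.33 (0.08 to 1.39) for R848, with adjusted p of 0.457 and 0.505, and in LynBKO the R848 value was 0.87 ± 0.33 (adjusted p = 1). With no filter on low counts the LPS value of Siglece in LynKO was called (0.93, adjusted p = 0.0453).

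For Sirpa the response of LynKO minus that of WT was -0.23 ± 0.09 for LPS and -0.33 ± 0.09 for R848, values that were not called (adjusted p = 0.455 and 0.148). With the mouse as a block the R848 value was called (adjusted p = 0.00363), as it was by DESeq2 (-0.37, adjusted p = 0.0121). For Cd72 the difference was 0.03 ± 0.16 with an interval of -0.28 to 0.35 for LPS, which leaves room for a modest change either way.

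**Figure D4:**
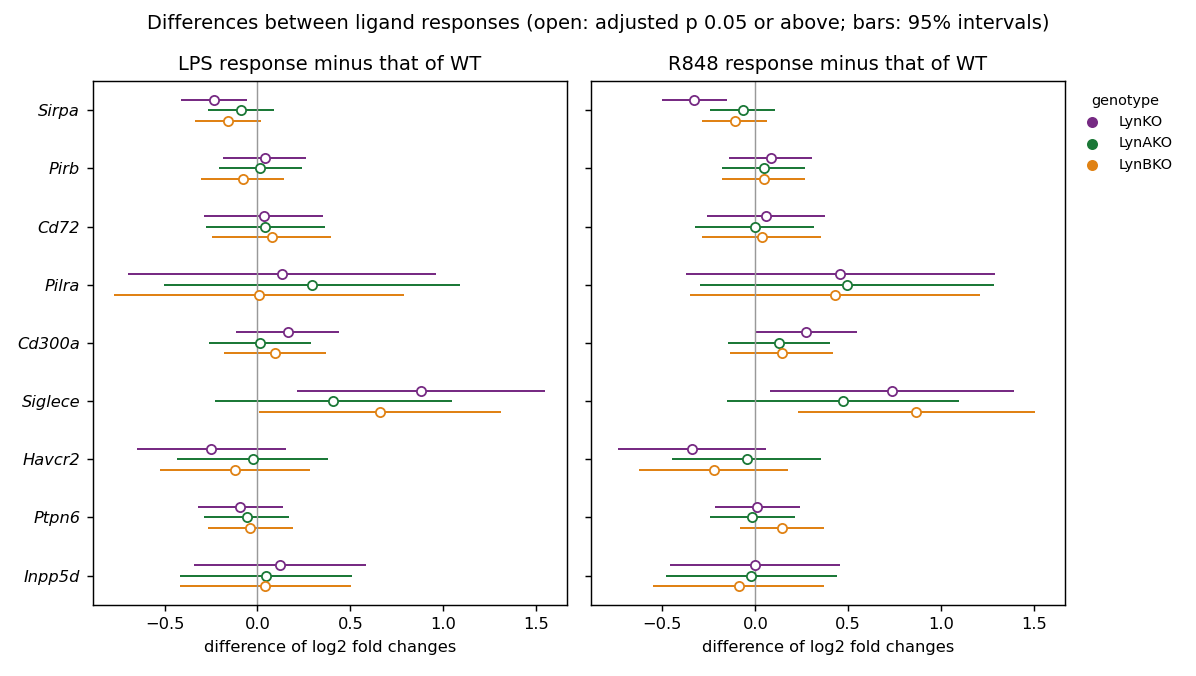
Difference between the log2 ligand response of each knockout and that of WT for the 9 members, with approximate 95% intervals from the edgeR estimates and SE. All points are open because no adjusted p was under 0.05. The intervals are widest for Pilra and Siglece and narrowest for Sirpa.

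The receptors have partners in the same cells. Of 12 listed ligand genes 11 were tested. In WT cells 7 rose and 3 fell with LPS under TMM, where 31.5% of all genes rose and 30.0% fell. By total counts 4 rose and 3 fell, and the share of all genes by total counts is not given here for any list. Cd47, the ligand of SIRPα, had 563 CPM with LPS and 280.2 CPM in NT cells (1.02 ± 0.08 on the log2 scale, adjusted p = 3.43e-09), and Sema4d, the ligand of CD72, 902 CPM with LPS and 481 CPM in NT cells (0.92 ± 0.09, 6.7e-08). Lgals9, a ligand of TIM-3, rose as well (1.18 ± 0.12, 1.91e-07), and Thbs1 fell (-1.70 ± 0.14, 7.43e-09). In LynKO against WT under TMM 0 of 11 were called without ligand, 1 with LPS (Thbs1, -0.69 ± 0.17, 0.0134) and 2 with R848 (Thbs1, -0.76 ± 0.18, and Sema4d, -0.29 ± 0.08), all lower. Of all genes, 4.47%, 4.06% and 2.74% were lower (NT, LPS and R848). By total counts the split was 1 higher and 0 lower without ligand, and 2 higher and 1 lower with LPS and with R848. Thbs1 was the lower gene with each ligand, and the Sema4d call was lost (adjusted p = 0.158). The higher genes were Npdc1, a ligand of PILRα, without ligand (0.64, adjusted p = 0.0338) and with R848 (0.85, adjusted p = 0.0263), B2m, the light chain of MHC class I, with LPS (0.33, adjusted p = 0.0396) and R848 (0.44, adjusted p = 0.0168), and Cd47 with LPS (0.23, adjusted p = 0.0332).

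Several inhibitory receptors have activating counterparts that signal through Fcer1g or Tyrobp. Of 20 listed activating counterparts and adaptors 14 were tested. With LPS in WT cells 3 rose and 3 fell under TMM (31.5% and 30.0% of all genes), and 2 rose and 8 fell by total counts. Pilrb1, the activating partner of Pilra, rose (1.58 ± 0.23, adjusted p = 1.03e-05), with 10.0 CPM with LPS and 3.37 CPM in NT cells. Cd300lb, of the family of Cd300a, fell (-3.29 ± 0.08, 1.09e-15), with 34.3 CPM with LPS and 339 CPM in NT cells. In untreated LynKO against WT cells 3 of 14 were lower and 0 higher (4.47% and 5.43% of all genes). Among the lower were Pilrb2 (-1.04 ± 0.26, 0.0139) and Fcer1g (-0.31 ± 0.08, 0.0109).

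Among 29 other ITIM receptors 22 were tested. With LPS in WT cells 8 rose and 6 fell under TMM, near the 31.5% and 30.0% of all genes, and 6 rose and 9 fell by total counts. The TMM median was -0.03, as over all genes. Fcgr2b, the inhibitory Fc receptor that recruits SHIP-1, rose, with 592 CPM with LPS and 45.4 CPM in NT cells (3.72 ± 0.15, adjusted p = 3.63e-13). Cd33, another Siglec, rose (1.89 ± 0.15, 6.14e-09), and Cd300lf, of the family of Cd300a, fell (-2.60 ± 0.20, 2.33e-09). In untreated LynKO against WT cells 2 of 22 were higher and 7 lower (5.43% and 4.47% of all genes). Lair1, a collagen receptor, was higher (0.58 ± 0.09, 0.0002) and Fcgr2b lower (-0.79 ± 0.08, 7.69e-06).

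Of 21 other phosphatases, adaptors and kinases of inhibitory signalling, all were tested. With LPS in WT cells 14 rose and 4 fell under TMM (31.5% and 30.0% of all genes), with a median of 0.69 against -0.03 over all genes. By total counts 10 rose and 7 fell. Ptprj, a receptor phosphatase, rose (2.62 ± 0.09, adjusted p = 5.78e-14), while Csk, the kinase that restrains Src-family kinases, fell (-0.63 ± 0.09, 5.73e-06). In untreated LynKO against WT cells 2 were higher and 3 lower under TMM (5.43% and 4.47% of all genes), and 2 higher and 1 lower by total counts. Fyn, another Src-family kinase, was higher (0.42 ± 0.07, 0.000538), and Fgr, of the same family, was lower (-0.37 ± 0.11, 0.0333), as was Lyn itself. By total counts Fgr (-0.31, adjusted p = 0.083) was no longer called, and the other genes named from these lists kept their direction in the comparisons given.

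Across the 12 group means on the log2 scale some members had closely similar patterns. Cd300a and Inpp5d had a Pearson r of 0.98 with each other, and Sirpa, Pirb, Pilra and Siglece had r of 0.91 to 0.94 among themselves, while r between Pirb and Inpp5d was -0.95. Cd72 and Havcr2 had r of 0.80. These describe 12 points that share libraries, treatments and scaling, so they carry no test. The genes whose means were most like those of a member were Bap1 for Sirpa (r = 0.992), Lcp2 for Pirb (0.999), Cpe for Cd72 (0.994), Pilrb1 for Pilra (0.989), Zfp740 for Cd300a (0.996), Vmp1 for Siglece (0.995), Kif2c for Havcr2 (0.960), Clip1 for Ptpn6 (0.992) and Dcaf8 for Inpp5d (0.999).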

How the data were processed

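RNA of 48 libraries was read as 2 × 150-base pairs. Per the submitters' processing notes, the authors' tools were STAR 2.5.2b on GRCm38, Trimmomatic 0.36, DESeq2 and, from Subread 1.5.2, featureCounts; no source names the annotation release or whether counting used strand. The deposited count table holds raw counts per gene, and the second table the authors deposited holds log2-scale variance-stabilised values of 13617 genes.

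The counts were tested in R 4.3.3 with edgeR 4.0.16 (TMM, glmQLFit and glmQLFTest, two-sided, Benjamini-Hochberg over 13986 genes, threshold 0.05) after filterByExpr with a minimum count of 10 and a minimum total of 15. Responses within a genotype were fitted on its 12 libraries, genotypes on the 16 libraries of a treatment, and differences of responses on all 48. Of 36 comparisons 30 were planned and 6 added after seeing the data; scaling by total counts was an alternative likewise added. Alternatives were DESeq2 1.42.0, limma 3.58.1 on the variance-stabilised values, RLE factors, no filter, sex, replicate block, 1 shared model and leaving out each mouse. The scripts were tested on simulated data. CPM are TMM-scaled, and log2 levels used a prior count of 2. SE were taken back from the edgeR test statistic, and 95% intervals used a normal approximation, so they are somewhat narrower than the test implies. TMM factors were 0.793 to 0.937 with LPS, 0.923 to 1.013 with R848 and 1.153 to 1.268 in NT cells. Genes named were Lyn, the members and, from each other list, up to 4 with the smallest adjusted p in each direction of a comparison; likeness was ranked by Pearson r over group means, with the top gene given. Marker genes, Tesk1, and Cd47, Npdc1 and B2m under total counts, were named outside this rule. A gene of the other lists that the rule would name is not reported here.

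The members and lists were chosen with earlier results of these data known. Labels give 16 mice, so by the labels the libraries of 1 treatment are separate animals. This is uncertain for LynBKO NT 4 and LynKO NT 4, which held transcripts of both sexes. The sex labels of LynBKO 2 and 3 differ between NT and ligand libraries, so a LynBKO number need not be the same mouse across treatments. Leaving out or blocking a LynBKO number then need not remove or block a mouse. Same-numbered libraries deviated together (every r over 0.1) in 10 of 12 ligand comparisons and 5 of 18 genotype comparisons, and blocked values stand beside results only there. Genes with close paralogs (Pirb and Pilra, also Sirpa) and overlapping genes (Cd72 with Tesk1, Pilra with Zcwpw1, Ptpn6 with Gm20531) have uncertain counts.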

Additional observations from a re-analysis of the deposited data

Results flagged for a closer look

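In 108 groups of 4 libraries (9 members in 12 groups), 7 held 1 library far from the other 3; its gap to the nearest of them, divided by the group's range, was above Dixon's critical value at 95%. Chance marks about 1 group in 20. Sirpa had 1204.2 CPM in the R848 library of LynKO mouse 4, against 1501.3 to 1546 CPM in the other 3 libraries, and Pilra had 14.3 CPM in the same library, against 18.8 to 19.2 CPM. Pilra had 50.8 CPM in the LPS library of WT mouse 1, against 28.2 to 30.6 CPM. Cd300a had 173.2 CPM in the LPS library of WT mouse 4, against 141.9 to 145.3 CPM. Siglece had 1.09 CPM in the NT library of LynAKO mouse 1, against 2.25 to 2.48 CPM, and 14.6 CPM in the LPS library of LynBKO mouse 1, against 8.67 to 9.58 CPM. Siglece also had 1.64 CPM in the NT library of LynKO mouse 4, one of the 2 libraries with transcripts of both sexes, against 1.27 to 1.33 CPM.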

How the results depend on the processing

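Of 324 member values, 99 were called, and no called value changed sign under any alternative but total counts. Scaled by total counts, the LPS value of Sirpa turned to -0.16 in LynKO, -0.06 in LynAKO and -0.13 in LynBKO, and that of Ptpn6 to -0.17 in LynKO, -0.17 in LynAKO, -0.16 in LynBKO and -0.13 in WT; the factors above show that TMM sets LPS and NT libraries apart. Counts of members called by total counts were 3 for LynKO against WT with LPS, and 2 each for LynKO against LynBKO with LPS and with R848.

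With no filter on low counts the counts were 1 for LynAKO against WT in NT cells, 2 for LynBKO against WT in NT cells, 1 for LynBKO against WT with LPS, 1 for the LPS response of LynKO (Siglece), and 2 for LynKO against LynAKO and against LynBKO with each ligand. DESeq2 gave 1 for the R848 response of LynKO, 2 for LynKO against LynBKO with LPS, and 3 for LynKO against LynAKO and against LynBKO with R848. The replicate block gave 1 for the R848 response of LynKO. For LynKO against LynAKO and against LynBKO it gave 2 each with LPS, and 2 and 4 with R848. Where same-numbered libraries did not all deviate together, it also called Havcr2 with LPS in LynBKO (-0.26). In such comparisons with LPS it called Pilra for LynKO against LynAKO (-0.91) and Cd72 for LynKO against LynBKO (0.43). The block ended no call. Sex as a covariate gave 2 for LynKO against LynAKO with LPS and 2 for LynKO against LynBKO with LPS and with R848. limma gave 0 for LynBKO against WT in NT cells and 0 for LynKO against LynAKO with R848, and RLE factors 0 for the second of these. One model of all 48 libraries gave 0 for LynBKO against WT in NT cells, 2 for LynKO against LynAKO with R848 and 4 for LynKO against LynBKO with R848. Without LynBKO NT 4 and LynKO NT 4 the NT counts were 0 for LynBKO against WT, 1 for LynKO against LynAKO and 0 for LynKO against LynBKO. For the fit with no filter the share of all genes called is not given, so its added calls cannot be set against a background. The causes were not tested.

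Without 1 mouse, LPS against R848 gave 2 to 5 members in LynKO, 2 to 3 in LynAKO and 2 to 4 in WT. LynBKO against WT in NT cells gave 0 to 1, LynKO against WT with LPS 2 to 4, LynKO against LynBKO in NT cells 0 to 3, and LynKO against LynAKO or LynBKO with either ligand 0 to 1. Siglece and Pilra have the lowest counts, which limits their precision.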
